A study of Mus musculus with 40 samples.

Results

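The aminoacyl-tRNA ligase genes of 5 cecal bacteria were followed across 4 diets. A gene belonged to the set if its symbol in the count table of a bacterium, once a trailing copy number was removed, was one of the ligase symbols alaS, argS, asnS, aspS, cysS, glnS, gltX, glyQ, glyS, glyQS, hisS, ileS, leuS, lysS, metG, metS, pheS, pheT, proS, serS, thrS, trpS, tyrS and valS. This gave 96 genes among 16742 features: 20 in L.bacterium335, 19 in Acetatifactor, 18 in X. muris, 21 in D. muris and 18 in F. rodentium. The bacteria are called what the tables call them, with genus names left abbreviated as there.

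Aminoacyl-tRNA ligases join each amino acid to the tRNAs that read its codons, and so supply the ribosome with its building blocks. The first 3 letters of a symbol name the amino acid, so that leuS encodes the leucine enzyme and metG the methionine enzyme. Some enzymes have more than one chain: pheS and pheT encode the chains of the phenylalanine enzyme, and glyQS encodes a single-chain glycine enzyme. Many bacteria lack a glutamine or asparagine enzyme and amidate a mischarged tRNA instead, with the amidotransferase that gatA, gatB and gatC encode. The enzymes are housekeeping proteins of growing cells.

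The samples were cecal contents of C57BL/6 mice, 3 weeks of age at the start of the Total Western Diet, a rodent diet modelled on Western human nutrient intake. After 6 weeks on it, all mice continued on it for 3 more weeks, with broccoli powder at 0%, 0.5%, 1% or 2.5% of the diet, so that the 0% group shared the Western diet with the others. There were 40 libraries, 10 per diet. The labels do not say that each library came from a separate mouse, so the p-values measure the spread between libraries.

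Counts per library on a genome differed widely and moved with diet. The median total on F. rodentium was 511338, 780314, 258912 and 75068.5 counts at 0%, 0.5%, 1% and 2.5% broccoli, and 2 of the 10 libraries at 2.5% had too few to be used. On L.bacterium335 the medians at the same doses were 83651, 77243.5, 155046 and 525404 counts, and on D. muris 25672, 42625.5, 53978 and 91086.5 counts. The 5 most counted features of a library held a median of 76.8%, 48.2%, 39.9% and 18.1% of the L.bacterium335 counts at those doses, and 56.8%, 39.6%, 38.1% and 28.7% of the Acetatifactor counts. In X. muris they held 91.2%, 79.3%, 65.3% and 50.6%, after 5 stable RNA features were left out. In D. muris they held 11.4%, 6.89%, 6.83% and 6.77%, and in F. rodentium 15.6%, 18.2%, 17.1% and 16.0%. Each genome was measured relative to its own counts, and the part of depth and of these few features in the differences below was not tested. In such bulk samples, fewer cells of a bacterium and less RNA per cell cannot be told apart.

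The summed ligase share showed how differently the genomes started. In L.bacterium335, all 20 ligase genes together had 3 of 757208 genome counts at 0%, 2554 of 1049041 at 0.5%, 6026 of 1935713 at 1% and 26609 of 5194973 at 2.5%. As a share of the genome counts of a library, the lowest, median and highest were 0%, 0% and 0.0107% at 0%, 0.0842%, 0.192% and 0.391% at 0.5%, 0.0450%, 0.255% and 0.476% at 1%, and 0%, 0.486% and 0.798% at 2.5%. Every library at 0.5% and 1% lay above all libraries at 0%, while 1 library at 2.5%, replicate 9, had no ligase count at all among 101772, which allows a share of up to 0.00295%.

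Acetatifactor and X. muris also had low shares at 0%, with overlap between diets. In Acetatifactor the median share was 0.0120%, 0.109%, 0.217% and 0.343% from 0% to 2.5%, with a range of 0.0105% to 0.522% at 2.5%, against 0% to 0.130% at 0%. In X. muris the median was 0.151%, 0.258%, 0.494% and 0.644%, with a range of 0.445% to 0.755% at 2.5%, against 0.0392% to 0.524% at 0%. In that genome the share outside the 5 features with most counts over all libraries had medians of 1.11%, 1.30%, 1.41% and 1.39%.

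D. muris and F. rodentium carried ligase transcripts at every diet. In D. muris the share ran from 1.70% to 2.09% at 2.5%, with a median of 1.93%, against 1.35% to 1.85% at 0%, with a median of 1.69%. In F. rodentium it ran from 0.660% to 1.14% at 2.5%, with a median of 0.830%, against 0.490% to 1.16% at 0%, with a median of 0.869%. The D. muris medians at 0.5% and 1% were 1.76% and 1.89%. Among the D. muris libraries used at 2.5%, only replicate 3, with 1.70%, lay below the highest 0% library. In F. rodentium the diets overlapped widely.

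**Figure D1:**
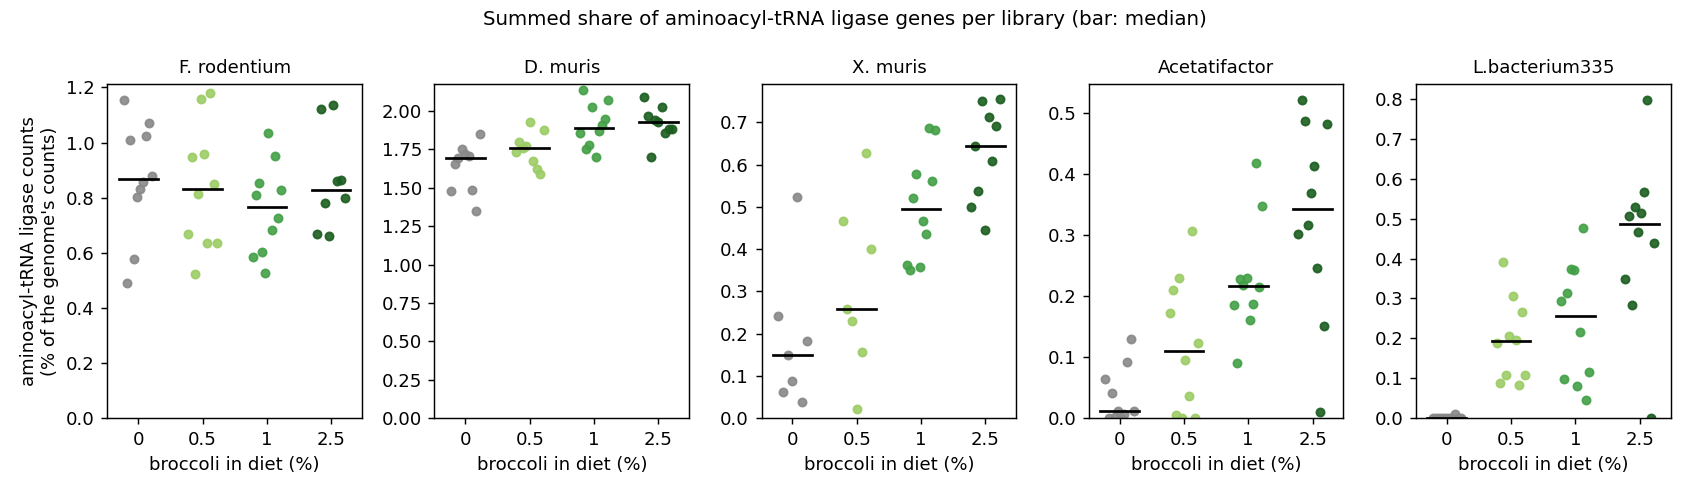
Summed ligase counts as a percentage of the counts on each genome (y axis), by percent of broccoli in the diet (x axis), with 1 point per library used and a bar at the group median. The L.bacterium335 points at 0% lie between 0% and 0.0107%, and the D. muris points lie at or above 1.35% at every diet.

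How many different ligases could be seen was compared at an equal total depth, as the number expected with a count in a draw of 10000 genome counts. The few most counted features are part of that draw, so the depth left for other genes was not equal. In L.bacterium335 the median number was 0, 8.12, 11.6 and 15.8 of 20 genes at 0%, 0.5%, 1% and 2.5%. In Acetatifactor it was 0.906, 6.54, 10.3 and 12.8 of 19, and in X. muris 5.68, 10.1, 15.2 and 16.5 of 18. In D. muris it was 19.5, 19.7, 19.9 and 19.8 of 21, and in F. rodentium 15.7, 15.6, 15.5 and 15.7 of 18. In D. muris, 18 ligases had a count in every library used, beside 597 of the 1108 genes tested. In F. rodentium it was 15 ligases, beside 834 of 1689 genes. The other 3 genomes had 0 such ligases, beside 144 of 1384 genes in L.bacterium335, 160 of 773 in Acetatifactor and 34 of 670 in X. muris.

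**Figure D2:**
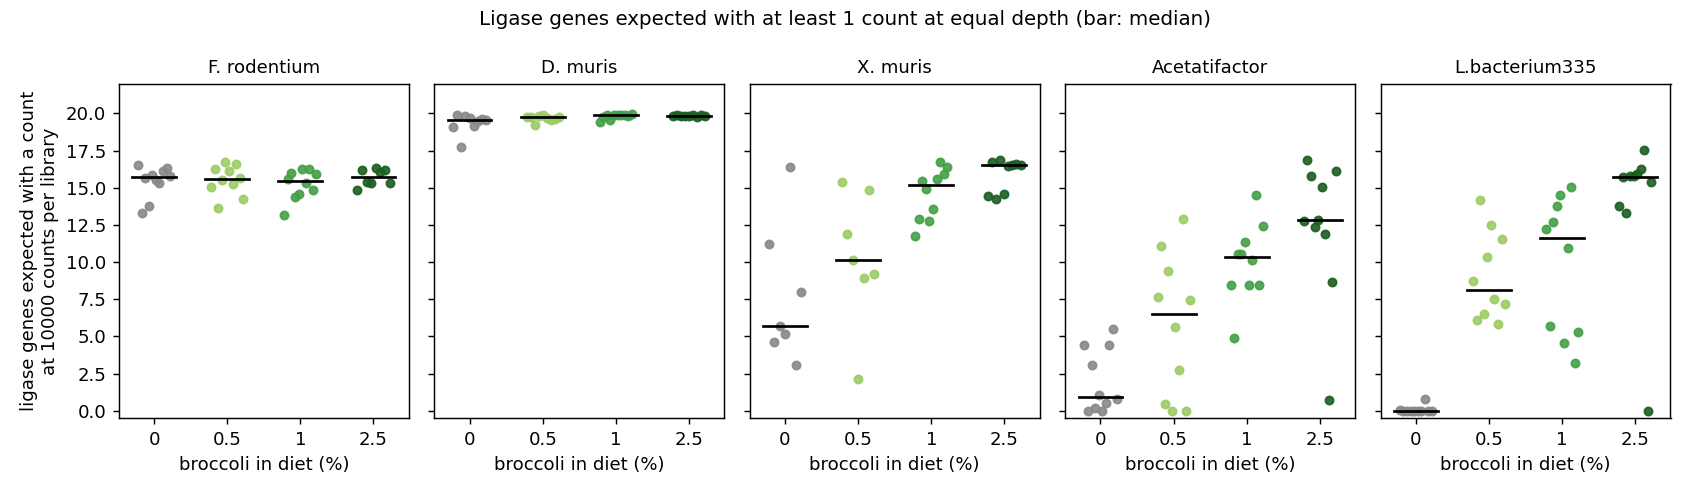
Number of ligase genes expected with at least 1 count in a draw of 10000 counts (y axis), by percent of broccoli in the diet (x axis), with 1 point per library used and a bar at the group median. The L.bacterium335 medians at 0%, 0.5%, 1% and 2.5% are 0, 8.12, 11.6 and 15.8, and those of F. rodentium lie between 15.5 and 15.7.

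In L.bacterium335, leuS, the leucine enzyme, had 1 count at 0% in all, and 423, 1053 and 3752 counts at 0.5%, 1% and 2.5%. On the CPM scale, which is counts relative to the scaled total on the genome, its lowest, median and highest library were 0, 0 and 9.99 at 0%, 136, 484 and 624 at 0.5%, 60.0, 527 and 655 at 1%, and 0, 477 and 734 at 2.5%. The 0.5% and 1% libraries did not overlap with those at 0%, and at 2.5% only replicate 9 did. With scaled library sizes, the ratio over 0% was 421 at 2.5%, with a 95% counting interval of 75.6 to 16647.

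The valine and alanine enzymes had no count at 0%, so that only a lower bound can be given, taking 3 counts over the group as the floor. The L.bacterium335 gene valS had 287, 559 and 2862 counts at 0.5%, 1% and 2.5%, which made it at least 107-fold higher at 2.5% than at 0%. The lowest, median and highest valS library had 0, 323 and 669 CPM at 2.5%. For alaS the counts were 200, 500 and 2040, and it was at least 76.4-fold higher at 2.5%. Both genes had counts in all 10 libraries at 0.5% and in 9 of 10 at 2.5%, and none in the 10 libraries at 0%.

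The enzymes for the acidic and amide amino acids had the same absence at 0%. In L.bacterium335, aspS_1, one of 2 rows for the aspartate enzyme, had 204, 420 and 2229 counts at 0.5%, 1% and 2.5%, and was at least 83.4-fold higher at 2.5% than at 0%. The other row, aspS_2, had 62, 165 and 688 counts, and how the counting divided reads that the 2 copies share was not given in the sources used here. The asparagine gene asnS had 70, 368 and 1670 counts and was at least 62.5-fold higher at 2.5%, and the glutamine gene glnS had 105, 190 and 973 counts and was at least 36.4-fold higher. At 0.5%, asnS was seen in 5 of 10 libraries and glnS in 9 of 10, against no library at 0% for either gene.

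Among the other L.bacterium335 ligases, serS had 164, 368 and 1266 counts at 0.5%, 1% and 2.5% and was at least 47.4-fold higher at 2.5% than at 0%. The arginine gene argS had 165, 397 and 1526 counts and was at least 57.1-fold higher at 2.5%. The proline gene proS had 128, 307 and 1360 counts, against 2 at 0%, both in replicate 8. Its ratio at 2.5% was 76.4, with a counting interval of 21.1 to 631.

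In all, 16 of the 20 L.bacterium335 ligases passed the filter on low counts, and all 16 of those tested were higher at 0.5%, at 1% and at 2.5% by edgeR's quasi-likelihood test at an adjusted p of 0.05. They passed it through the broccoli groups, where they are high, 0 of them on the 0% libraries alone. Each had at most 2 counts at 0%, so these calls are a description. The background was one-sided too, since 79.4%, 78.4% and 77.8% of the 1384 genes tested were higher at 0.5%, 1% and 2.5%. For the 14 genes with no count at 0%, the lower bounds ran from 12.5-fold to 94.6-fold at 0.5% (median 46.2), from 19.9-fold to 75.7-fold at 1% (median 46.4) and from 20.7-fold to 107-fold at 2.5% (median 54.3). The median fitted log2 fold change of the 16 at 2.5% was 8.46, against 7.94 over all genes tested, and fitted values of genes absent at 0% are no bound. With RLE factors in place of TMM factors these medians were 9.79 and 9.20, and the split of all called genes at 2.5% was 1147 higher and 33 lower, against 1077 and 208 with TMM. At 0.5% and 1% the ligase median was 8.20 and 8.04 with TMM factors, but 7.09 and 7.71 with RLE factors. The lower bounds were computed with TMM factors and hold for that scaling only.

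The 4 L.bacterium335 ligases that did not pass the filter, lysS, pheS, thrS and tyrS, had no count at 0% either. At 0.5%, 1% and 2.5%, lysS had 21, 74 and 708 counts, pheS 18, 28 and 210, thrS 15, 90 and 393, and tyrS 10, 28 and 114. CPM did not overlap between 0.5% and 0% for 6 of the tested ligases, beside 26.2% of all genes tested, nor between 1% and 0% for 5, beside 21.9%. At 2.5% none was free of overlap, beside 5.35% of genes, since replicate 9 had no ligase count. That library had 79.1% of its L.bacterium335 counts in its 5 most counted features, and without it the same number of ligases, 16, was called at each dose.

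None of the 16 L.bacterium335 ligases passed edgeR's test between 2.5% and 0.5%, 1 had an unadjusted p below 0.05, and 0.723% of all genes were higher and 12.5% lower. The median log2 fold change was 0.23 for the ligases and 0.14 for all genes. Scaling decided this comparison: with RLE factors all 16 were higher, with medians of 2.70 for the ligases and 2.64 for all genes, and 1092 of 1111 called genes were higher, against 10 of 183 with TMM factors. DESeq2 called 20 of 20 higher, beside 65.2% of the 3746 genes to which it gave an adjusted p. With TMM factors, 1 ligase was called without 0.5% replicate 3, 0.5% replicate 9 or 2.5% replicate 9.

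**Figure D3:**
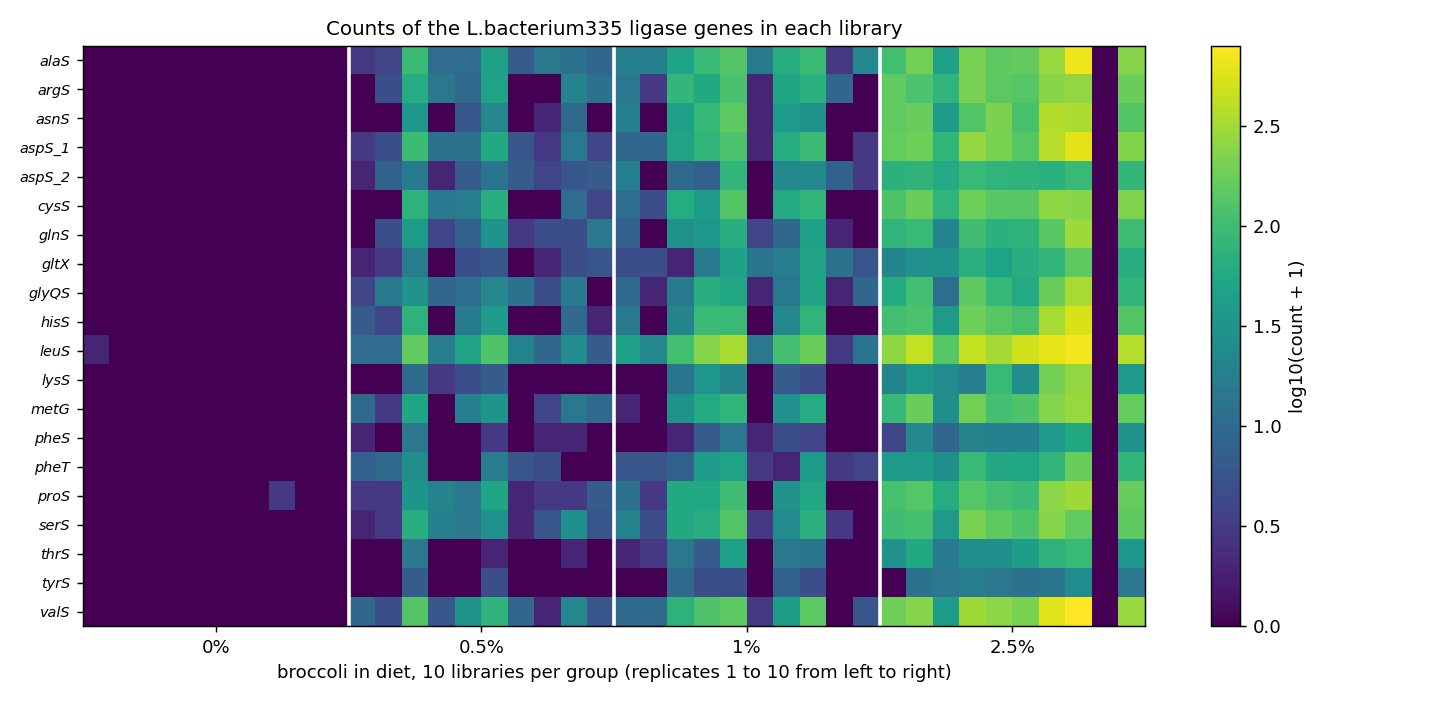
Counts of the 20 L.bacterium335 ligase genes (rows) in each of the 40 libraries (columns, by percent of broccoli), coloured by log10(count + 1). The 0% columns are empty but for 1 count of leuS and 2 of proS, and replicate 9 at 2.5% is empty in every row.

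In Acetatifactor, 6 of 19 ligases passed the filter on low counts. They passed it through the groups where they are high, 0 of them on the 0% libraries alone, so the p-values below are a description. The methionine gene metG had the largest fitted fold change of the 6. It had 2 counts at 0%, both in replicate 5, and 71, 142 and 420 counts at 0.5%, 1% and 2.5%. Its lowest, median and highest library had 0, 0 and 85.3 CPM at 0%, 0, 59.3 and 364 CPM at 0.5%, 0, 166 and 345 CPM at 1%, and 0, 280 and 384 CPM at 2.5%. The groups overlapped, since some library lacked it at each dose. The ratio over 0% at 2.5% was 34.1, with a counting interval of 9.38 to 282, and the log2 fold change in edgeR's test was 4.61 ± 0.92 (SE).

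The other 5 Acetatifactor ligases tested were also higher at 2.5% than at 0%. The alanine gene alaS had 0, 327 and 555 CPM in its lowest, median and highest library at 2.5%, against 0, 0 and 415 at 0%, a log2 fold change of 2.40 ± 0.78 with an adjusted p of 0.0063 in edgeR's test. The glycine gene glyQS had 89.9, 434 and 588 CPM at 2.5%, against 0, 0 and 507 at 0%, and a log2 fold change of 2.02 ± 0.71. The groups overlapped for both genes, each of which had counts in 3 of the 10 libraries at 0%, while alaS was at 0 in 1 library at 2.5%.

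For the Acetatifactor arginine gene argS the lowest, median and highest CPM were 0, 251 and 278 at 2.5%, against 0, 0 and 415 at 0%. The asparagine gene asnS had 0, 208 and 314 CPM at 2.5%, against 0, 0 and 277 at 0%. The glutamate gene gltX had 0, 158 and 280 CPM at 2.5%, against 0, 0 and 246 at 0%. Their log2 fold changes lay between 1.79 and 1.92, with adjusted p-values in edgeR's test of 0.016, 0.0172 and 0.033. Counts were present in 3, 4 and 3 of 10 libraries at 0% for the 3 genes, and in 9 of 10 at 2.5%. The call of gltX was lost when 0% replicate 2, 3, 4, 5, 6, 7 or 10 or 2.5% replicate 2 or 6 was left out, with an adjusted p of at most 0.0625.

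At 0.5%, 1 of the 6 Acetatifactor ligases tested was higher, beside 21.6% of the 773 genes tested. That count was 5 without 0% replicate 9, 3 without 0% replicate 8, and 1 or 2 without any other single library. At 1%, 5 of the 6 were higher, beside 49.5%, and at 2.5% all 6 of those tested, beside 54.5%. Their median log2 fold change at 2.5% was 1.97, against 1.81 over all genes. Relative to the genome median, metG stood 2.80 higher on the log2 scale at 2.5%, while argS, asnS and gltX stood at 0.12, -0.01 and -0.01. With RLE factors the 2 medians were 3.95 and 3.84, and 543 genes were called higher and 21 lower, against 421 and 174 with TMM factors. At 0.5% and 1%, 362 of 370 and 479 of 487 called genes were higher with RLE factors, against 167 of 194 and 383 of 524. The call of glyQS at 1% was lost in 12 of 40 fits that left out a library (0% replicates 1 to 7 and 10, and 1% replicates 4, 8, 9 and 10), with an adjusted p of at most 0.0713. With the log2 genome total as a covariate, 1 of the 6 was called at 2.5% and 2 at 1%.

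Of the 13 Acetatifactor ligases below the filter, aspS had 1, 25, 87 and 285 counts at 0%, 0.5%, 1% and 2.5%, proS 1, 45, 76 and 240, valS 4, 12, 44 and 325, and leuS 11, 40, 89 and 274. In the other 9, the sums over a group ran from 88 to 237 counts at 2.5%, against 0 to 8 at 0%. DESeq2, run without the low-count filter, called 7, 16 and 19 of the 19 higher at 0.5%, 1% and 2.5%, beside 42.4%, 59% and 73.5% of the genes to which it gave an adjusted p. Comparing 2.5% with 0.5%, edgeR called none of the 6, with 1 unadjusted p below 0.05, beside 9.18% of all genes either way, and DESeq2 called 14 of 19 higher, beside 46.5%. There RLE factors gave 4 ligases and 289 of 302 called genes higher, against 11 of 71 genes with TMM factors.

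In X. muris, leuS was higher at 2.5%, and the other 12 ligases tested did not pass the test, beside 9.55% of all 670 genes higher. The 13 passed the filter on low counts through the broccoli groups, 0 of them on the 0% libraries alone. The call of leuS and the X. muris p-values below are therefore a description. The lowest, median and highest leuS CPM were 297, 422 and 633 at 2.5%, against 0, 0 and 403 at 0%, with all 9 libraries at 2.5% above the 0% mean. The log2 fold change was 1.45 ± 0.51 with an adjusted p of 0.0466 in edgeR's test, close to the threshold. The call held in 10 of the 33 fits that left out a library (0% replicates 1 and 7, 0.5% replicates 6 and 8, 1% replicates 1, 2, 5, 7 and 10, and 2.5% replicate 6). In the other 23 the adjusted p reached 0.158. It was also lost with RLE factors, where the log2 fold change was 1.24 and the adjusted p 0.113.

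The X. muris gene metG had 210, 283 and 385 CPM in its lowest, median and highest library at 2.5%, against 0, 101 and 155 at 0%. These groups did not overlap, as for 5.97% of the 670 genes tested, and the log2 fold change was 1.54 ± 0.58 with an adjusted p of 0.0719 in edgeR's test. Of the genes with the highest mean CPM, aspS had 218, 347 and 719 CPM at 2.5%, against 0, 0 and 488 at 0%, and ileS had 368, 476 and 662 CPM, against 0, 244 and 904. The alaS values were 247, 308 and 480 CPM at 2.5%, against 0, 366 and 651 at 0%. These 3 genes overlapped widely between the diets, with log2 fold changes of 1.09 ± 0.51, 0.37 ± 0.42 and 0.08 ± 0.47.

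At 2.5%, 1 of 13 X. muris ligases was called higher and none lower, beside 9.55% higher and 1.49% lower among all genes, with 3 unadjusted p-values below 0.05. No ligase was called by edgeR at 0.5%, with 1 unadjusted p below 0.05 and 0% of all genes called, nor at 1%, with 3 unadjusted and 6.57% of all genes called. Between 2.5% and 0.5% none was called, with 0 unadjusted, beside 4.03% of genes. DESeq2 called 0 in each of the 4 comparisons. By edgeR, 1 was called at 1% without 0% replicate 7 or 1% replicate 2, and 2 at 2.5% without 0% replicate 7. The median log2 fold change at 2.5% was 0.45 for the ligases and 0.51 for all genes, and with RLE factors 0.20 and 0.25. The split of all called genes at 2.5% was 64 higher and 10 lower, and 32 and 13 with RLE factors. At 1% it was 36 higher of 44 called, and 22 of 32 with RLE factors, and for 2.5% against 0.5% it was 7 of 27, and 17 of 34. The ligases below the filter, asnS, hisS, proS, trpS and tyrS, had 156 to 267 counts each over the 2.5% group, against 6 to 16 over the 0% group.

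In D. muris, no ligase passed the test at any dose. The threonine gene thrS had 2593, 3088 and 3500 CPM in its lowest, median and highest library at 2.5%, against 2255, 3134 and 3823 at 0%, and a log2 fold change of -0.01 ± 0.12. The glutamine gene glnS had 1563, 1959 and 2208 CPM at 2.5%, against 1343, 1880 and 3712 at 0%, with a log2 fold change of -0.15 ± 0.18. The valine gene valS had 1161, 1458 and 2083 CPM, against 1122, 1440 and 2050, with a log2 fold change of -0.01 ± 0.17. In each the range at 2.5% lay within or almost within that at 0%.

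Of the 20 D. muris ligases tested, edgeR called 0 at 0.5%, 1% and 2.5%, with 0, 0 and 1 unadjusted p-values below 0.05, and DESeq2 called 0 as well. Among all 1108 genes, 4.96%, 6.23% and 10.6% were called either way. For 2.5% against 0.5% it was 0 again, with 0 unadjusted and 0 by DESeq2, beside 0.451% of genes. Log2 fold changes at 2.5% ran from -0.25 to 0.56, with a median of 0.08, equal at this rounding to that over all genes. The lowest adjusted p at 2.5% was that of cysS, the cysteine enzyme, at 0.0974 in edgeR's test, with 884, 1437 and 2154 CPM at 2.5% against 304, 1209 and 1436 at 0%. On the 0% libraries alone, 8 of the 20 ligases tested passed the filter on low counts. The one gene below the filter in the fit of all groups, aspS_1, had 0 counts in all 40 libraries. The second row for the aspartate enzyme, aspS_2, had 467, 643 and 815 CPM at 2.5% against 86.3, 415 and 819 at 0%.

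In F. rodentium, metG was lower at 2.5% than at 0% and the other 16 ligases tested did not pass. Its lowest, median and highest library had 1331, 1726 and 1928 CPM at 0%, 1274, 1692 and 2183 at 0.5%, 1152, 1487 and 1976 at 1%, and 989, 1243 and 1425 at 2.5%. All 8 libraries used at 2.5% lay below the 0% mean, and the highest of them overlapped the lowest libraries at 0%. The log2 fold change was -0.45 ± 0.14 (SE), with an adjusted p of 0.0308 in edgeR's test. The call was lost without 0% replicate 4, 6 or 7 or 2.5% replicate 4, with adjusted p-values of 0.0621, 0.0582, 0.0510 and 0.0609, and with RLE factors, where the log2 fold change was -0.33 and the adjusted p 0.0644.

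A further 3 F. rodentium ligases had an unadjusted p below 0.05 at 2.5%, each with a negative log2 fold change. The arginine gene argS had 117, 458 and 605 CPM at 2.5% against 437, 631 and 771 at 0%, with a log2 fold change of -0.52 ± 0.18 and an adjusted p of 0.0543 in edgeR's test. The isoleucine gene ileS had 131, 234 and 352 CPM against 172, 353 and 564, and cysS 124, 245 and 333 CPM against 207, 311 and 442. Neither argS nor ileS had any library at 2.5% above its 0% mean.

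The glycine gene glyQS had 1001, 1446 and 1775 CPM at 2.5% in F. rodentium, against 999.6, 1468 and 1936 at 0%, with a log2 fold change of 0.01 ± 0.15. The alaS values were 521, 873 and 1268 CPM at 2.5%, against 295, 963 and 1825 at 0%. The diets overlapped widely for both genes.

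Of the 17 F. rodentium ligases tested, edgeR called 0 at 0.5% and 0 at 1%, with 0 unadjusted p-values below 0.05 at each and 0 calls by DESeq2, beside 8.47% and 0.474% of the 1689 genes tested. At 2.5% it called 0 higher and 1 lower, beside 5.39% higher and 4.03% lower among all genes. Between 2.5% and 0.5% it called 0, with 2 unadjusted, beside 3.37% of genes, and DESeq2 called 1 lower, beside 3.19%. At 2.5% it was 2 when 0% replicate 2 or 3, 0.5% replicate 5, 7, 8 or 9, 1% replicate 2, 6 or 8, or 2.5% replicate 5, 8 or 10 was left out, and for 2.5% against 0.5% it was 1 in 17 of the 38 fits that left out a library. The median log2 fold change at 2.5% was -0.06 for the ligases, against 0.01 for all genes, but 0.08 and 0.12 with RLE factors, and the sign of the ligase median turned with the scaling. The split of all called genes at 2.5% was 91 higher and 68 lower, and 111 and 45 with RLE factors. At 0.5% it was 60 higher of 143 called, and 78 of 150 with RLE factors. The gene below the filter, tyrS, had 0, 12, 15 and 5 counts from 0% to 2.5%.

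**Figure D4:**
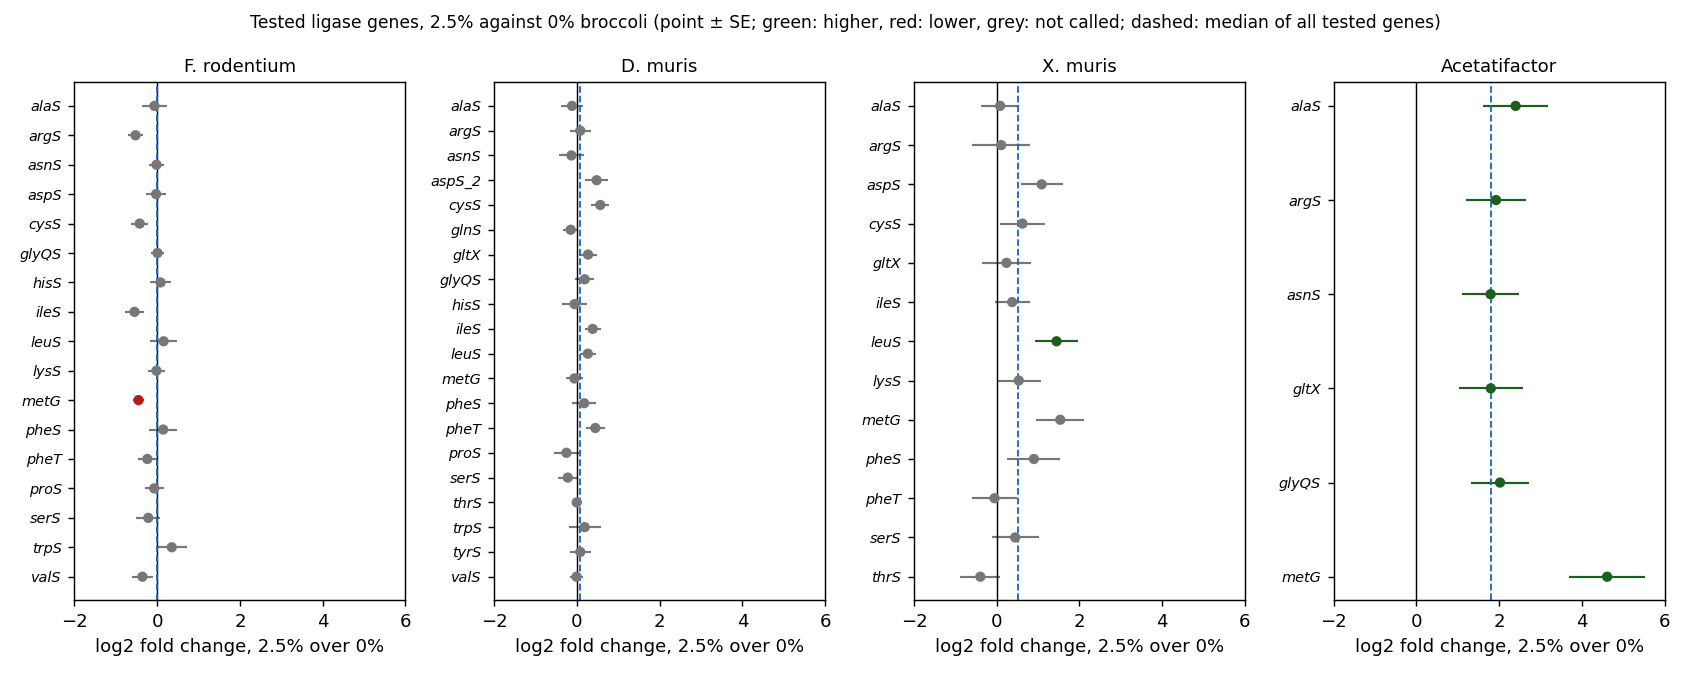
Log2 fold changes of the tested ligase genes at 2.5% over 0% broccoli (x axis, point ± SE) in Acetatifactor, X. muris, D. muris and F. rodentium, 1 gene per row. Green points passed the test as higher and the red point, F. rodentium metG, as lower. Dashed lines mark the median of all genes tested, which lies at 1.81 in Acetatifactor.

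D. muris and F. rodentium held 15 ligases tested in both, which allowed the change at 2.5% over 0% to be compared within the same libraries, as the difference of log2(CPM + 1) between the 2 genomes. No ligase passed the limma test of this difference, beside 0% of all 228 shared symbols, with 3 unadjusted p-values below 0.05 among the ligases and 62 among all. On this scale the difference was above 0 for 12 of 15 ligases and for 180 of 228 symbols, with medians of 0.46 and 0.53. By edgeR's fold changes in each genome the change was larger in D. muris for 9 of 15 ligases and 140 of 228 symbols, so that the 2 measures differed in direction for some genes. The histidine gene hisS had a difference of 1.01 on the log2(CPM + 1) scale, but edgeR log2 fold changes of -0.06 in D. muris and 0.08 in F. rodentium, and the sign also turned for trpS and asnS, whose differences on the log2(CPM + 1) scale were 0.85 and 0.07. The fit used 8 libraries at 2.5% and 9 at 0%. On the 0% libraries alone, 8 of the 20 D. muris ligases tested passed the filter on low counts, against 17 of 17 in F. rodentium.

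The largest difference by p was that of cysS, whose change was 1.16 ± 0.33 higher in D. muris than in F. rodentium on the log2 scale, with a 95% interval of 0.49 to 1.83 and an adjusted p of 0.0536 in limma's test. For argS the difference was 0.92 ± 0.30, with an interval of 0.32 to 1.52, and for ileS 1.00 ± 0.38, with an interval of 0.24 to 1.76. For metG it was 0.46 ± 0.24, with an interval of -0.02 to 0.94, for pheT, a chain of the phenylalanine enzyme, 0.70 ± 0.36, and for valS 0.52 ± 0.34. No p of the 6 passed after adjustment. These differences were tested against 0, while the median difference over all 228 shared symbols was 0.53. The differences of metG and valS lay below that median, and those of cysS, argS, ileS and pheT above it. The 95% intervals of all 6 included that median, so none of them was set apart from it. Leaving out 0% replicate 6 or 10 gave 2 called ligases, and leaving out 1 of 13 other libraries gave 1. A p that misses the threshold does not show that the 2 genomes changed alike.

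**Figure D5:**
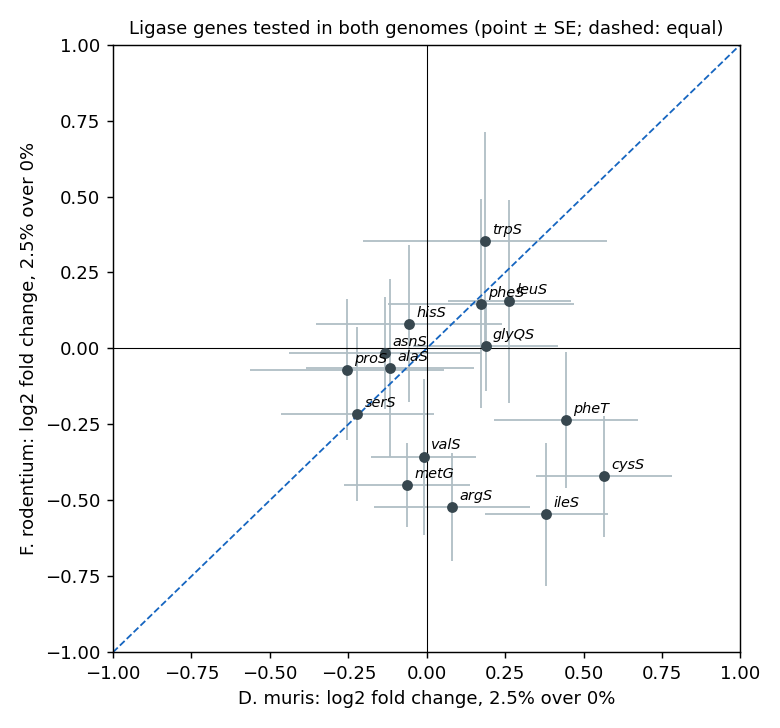
Log2 fold change at 2.5% over 0% broccoli in D. muris (x axis) and in F. rodentium (y axis) for ligase genes tested in both, with bars of 1 SE and a dashed line of equal change. The points of cysS, ileS and argS lie below the line, at -0.42, -0.55 and -0.52 in F. rodentium.

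Other genes of tRNA maturation and modification were described alongside. In L.bacterium335, 6 of 27 listed genes were tested and all 6 were higher at 2.5%, beside 77.8% of the 1384 genes tested. Their median log2 fold change was 7.56, below the 7.94 over all genes. Among them were miaB, which thiomethylates tRNA, tgt, which exchanges guanine for a queuine precursor, and tsaD, which makes the threonylcarbamoyl modification. The gene miaB averaged 192 ± 75.6 CPM at 2.5% and 1.11 ± 3.50 CPM at 0% (SD, n = 10 each), and tgt and tsaD had none at 0%. They too passed the filter through the broccoli groups, so their calls are a description.

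In F. rodentium, 25 of 27 listed genes were tested and 2 were higher and 0 lower at 2.5% by edgeR, a share near the 5.39% higher and 4.03% lower among all 1689 genes. The gene mnmG, which modifies the wobble base of tRNA, had 352, 434 and 1192 CPM at 2.5%, against 259, 362 and 533 at 0%, a log2 fold change of 0.75 ± 0.21 with an adjusted p of 0.016. The row gatC_2 had a log2 fold change of 1.65 ± 0.39 with an adjusted p of 0.00544 in edgeR's test. Its symbol is shared by an amidotransferase chain and a galactitol transport protein, which the table does not tell apart. At the same dose DESeq2 called 5 of the 27 listed genes higher and 0 lower. Among all genes with an adjusted p it called 9.78% higher and 3.99% lower.

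In X. muris, 6 of 22 listed genes were tested, and trmB, which methylates tRNA, was higher at 2.5% and at 1%, beside 9.55% of all genes higher at 2.5% and 6.57% called either way at 1%. It passed the filter through the broccoli groups, so its calls are a description. It had 186, 248 and 421 CPM at 2.5%, against 0, 0 and 201 at 0%, a log2 fold change of 3.64 ± 0.89. In D. muris, 14 of 28 were tested and edgeR called 0 at 2.5%, with 0 unadjusted p-values below 0.05 and 0 calls by DESeq2, beside 10.6% of the 1108 genes called either way. At 0.5%, 1 of the 14 was called, beside 4.96% of all genes: tgt was lower, with a log2 fold change of -1.16 ± 0.32 and an adjusted p of 0.0203 in edgeR's test. None of the 30 listed in Acetatifactor passed the filter. DESeq2, run without it, gave an adjusted p to 18, 26 and 28 of them at 0.5%, 1% and 2.5%. It called 7, 16 and 24 of these higher, beside 42.4%, 59% and 73.5% of all genes with an adjusted p.

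No genome had a row for every ligase symbol. No row carried glyQ, glyS or metS, and 4 genomes had glyQS instead. L.bacterium335 had no row under ileS or trpS, Acetatifactor none under ileS, lysS or trpS, X. muris none under glnS, glyQS or valS, D. muris none under lysS, and F. rodentium none under glnS, gltX or thrS. A gene may stand in a table under another name, and rows without a symbol were not searched. Acetatifactor had 2 rows for the tyrosine enzyme, tyrS_1 and tyrS_2, with 125 and 97 counts over the 2.5% group, against 0 and 1 over the 0% group.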

How the data were processed

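Total RNA from cecal contents was depleted of ribosomal RNA and sequenced, per the labels' protocols. The authors deposited whole-number read counts per feature, in a table for each bacterium, with no normalization. The aligner, the counting program, the handling of shared reads and the builds were not given in the sources used here. All columns matched a library by name. The members and the lists were chosen with earlier results of these data known.

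Each of 5 genomes was fitted alone in R 4.3.3. Libraries with at least 10000 counts on the genome entered: 10, 10, 10 and 10 for L.bacterium335 and for Acetatifactor at 0%, 0.5%, 1% and 2.5%, 7, 7, 10 and 9 for X. muris, 9, 9, 10 and 9 for D. muris, and 10, 10, 10 and 8 for F. rodentium. The stable RNA features ssrA, rnpB, ffs, rrf_1 and rrf_2 of X. muris did not enter. After filterByExpr and TMM scaling, edgeR 4.0.16 (quasi-likelihood F test, two-sided) compared each dose with 0%, and 2.5% with 0.5%, all groups in one fit, with Benjamini-Hochberg adjustment over all tested genes of the genome and contrast at 0.05. Of 96 members, 72 were tested. Levels are TMM-scaled CPM, not corrected for gene length, so they are not compared between genes. Genes with 0 counts at 0% have a lower bound with a floor of 3 counts over the group, and those with 1 to 3 counts a ratio with an exact 95% interval. Both used TMM-scaled library sizes. Floors and intervals cover counting error only, since reads without molecular identifiers are not independent molecules. The difference between D. muris and F. rodentium was tested with limma 3.58.1 on log2(CPM + 1). The scripts were tested on simulated data.

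Named were, per genome, called members by smallest adjusted p (up to 8 at 2.5% against 0% and up to 4 in each other contrast), the 3 with the highest mean CPM, the 6 smallest p-values between the 2 genomes, and up to 3 called genes at 2.5% from a list of other tRNA genes; F. rodentium argS, ileS and cysS, D. muris cysS, aspS_2 and tgt, X. muris metG, L.bacterium335 proS and aspS_2 and the counts of members below the filter were added after their values were seen. Replicates were compared in 180 pairs of libraries and none was identical, with a chi-square per degree of freedom of at least 10.7. Alternatives were RLE factors, no filter, a minimum of 50000 counts, leaving out the libraries numbered 76 to 81, DESeq2 1.42.0, the genome total as a covariate, leaving out the 5 most counted features, keeping the stable RNAs, a pseudocount of 10 CPM and leaving out each library. Libraries 76 to 81 are 0.5% replicates 7 to 10, 1% replicate 10 and 2.5% replicate 10, with none from the 0% group.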

Additional observations from a re-analysis of the deposited data

Results flagged for a closer look

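Libraries far from the rest of their group were found in 2 of 20 groups of summed shares and in 15 of 89 groups of single named genes, by the gap to the nearest library as a part of the group's range. By chance about 5% of groups would be expected to be so marked, and groups with many zeros are marked readily.

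In L.bacterium335, 0% replicate 8 had a summed ligase share of 0.0107%, made of 2 counts of proS, above all other 0% libraries, and the leuS value of 9.99 CPM in 0% replicate 1 came from 1 count. In 2.5% replicate 9, leuS and argS were both at 0 CPM. In 2.5% replicate 8, alaS had 564 CPM and glnS 251 CPM, the highest of that group, and in 0.5% replicate 10 glnS had 295 CPM.

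In Acetatifactor, metG had 85.3 CPM in 0% replicate 5 and 0 in the other 0% libraries. In 0% replicate 9, argS and alaS each had 415 CPM. In 2.5% replicate 8, asnS and argS were both at 0 CPM. In the 1% group argS had 489 CPM in replicate 2 and gltX had 450.5 CPM in replicate 1.

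In X. muris, 0% replicate 7 had a summed ligase share of 0.524%, against 0.241% in the next 0% library. The leuS level was 0 CPM in 0.5% replicate 5, and aspS had 719 CPM in 2.5% replicate 3.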

How the results depend on the processing

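No paired analysis was possible because the replicate numbers were given in accession order. Of the log2 fold changes of called named ligases, 1463 of 1511 with a library left out and 228 of 245 under other settings stayed past the threshold, and 0 reversed. The rest lost it: gltX at 2.5% in 9 of 40 single-library fits and glyQS at 1% in 12 of 40 (Acetatifactor), metG in 4 of 38 (F. rodentium) and leuS in 23 of 33 (X. muris). The pooled numbers include the named L.bacterium335 ligases at each dose, which had at most 1 count each at 0%. Those genes passed the filter through the broccoli groups, so the pooled numbers do not measure how firm the other calls are.

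Counts of called ligases moved as follows. In Acetatifactor they were, at 0.5% against 0%, 3 with RLE factors, 4 with no filter, 2 without libraries 76 to 81 and 7 with DESeq2, against 1. At 1% they were 15 with no filter, 16 with DESeq2, 2 with the covariate and 3, of 3 tested, without the 5 most counted features, against 5. At 2.5% they were 19, 19, 1 and 3 under those settings, against 6. For 2.5% against 0.5% they were 4 with RLE factors, 1 with no filter and 14 with DESeq2, against 0. In F. rodentium at 2.5% they were 0 with RLE factors, a minimum of 50000 counts, libraries 76 to 81 left out or the covariate, and 2 with no filter or without the most counted features, against 1. For 2.5% against 0.5% they were 1 with DESeq2 and 1 without those features, against 0. In L.bacterium335 between 2.5% and 0.5% they were 16 with RLE factors, 3 with no filter, 20 with DESeq2 and 1 without those features, against 0. In X. muris at 2.5% they were 0 with RLE factors, without libraries 76 to 81, with DESeq2 or with the covariate, against 1. For the difference between D. muris and F. rodentium they were 1 with a pseudocount of 10 CPM and 2 with no filter, against 0. Fewer or more genes were tested without the most counted features or the filter, and the cause of the other moves was not tested.

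With each library left out, the counts ran from 1 to 5, 4 to 7, 5 to 7 and 0 to 0 in Acetatifactor at 0.5%, 1%, 2.5% and 2.5% against 0.5%, the 5 without 0% replicate 9. They were 0 throughout in D. muris, 0 to 2 at 2.5% and 0 to 1 between 2.5% and 0.5% in F. rodentium, and 16 to 16 at each dose and 0 to 1 between 2.5% and 0.5% in L.bacterium335. In X. muris they ran from 0 to 1 at 1% and 0 to 2 at 2.5%, the 2 without 0% replicate 7, and for the difference between the genomes from 0 to 2. A minimum of 50000 counts could not be run against 0% in Acetatifactor, D. muris and X. muris or for that difference, because no 0% library reaches it. At 0% the few counts on these genomes limit what can be seen, and a gene at 0 may lie under the depth.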
